A study of Mus musculus with 2 samples.

Results

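Secondary (specific) and tertiary (gelatinase) granules of the neutrophil were followed through the mRNA of 10 of their genes in splenic RNA of mice intoxicated with acetaminophen (APAP). The members were Ltf, Camp, Ngp, Lcn2, Chil3, Cd177, Mmp8, Mmp9, Itgb2l and Mmp25, and each of them was found in the table of 22791 genes. They were chosen by symbol, with earlier results of these data known. The APAP group consisted of wildtype male C57BL/6J mice, young adults fasted overnight, that were given 300 mg/kg APAP intraperitoneally and analysed after 30 h. The control group (ctrl) consisted of mice of the same strain, sex and age that were likewise fasted, received 0.9% NaCl and were analysed at the same time. Equal amounts of splenic RNA from all mice of a group were combined, and each pool gave 1 MACE library. By the account of the study, the ctrl pool held fewer mice than the APAP pool. Massive analysis of cDNA ends (MACE) counts a transcript at its poly(A) end, so that long and short transcripts can be compared by their counts. With 1 library per group there is no replicate check. Every ratio given is APAP over ctrl in normalised counts. All intervals are 95% intervals of counting error and leave out the variation between mice and between library preparations.

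A neutrophil builds its granules in sequence while it matures. Primary granules with myeloperoxidase and the serine proteases are filled in the promyelocyte, secondary granules with lactoferrin, cathelicidin and lipocalin in the myelocyte and metamyelocyte, and tertiary granules with gelatinase in the band cell. Most of these mRNAs fade before the cell enters the blood, so that they are known as markers of maturing neutrophils in the bone marrow and, in mice, in the spleen, where granulopoiesis can take place in the red pulp. The transcription factor C/EBP-epsilon (Cebpe) is required for the secondary granule genes.

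Total counts were 2890947 in the APAP and 2735788 in the ctrl library, in which a count of 0 allows up to 1.04 and 1.10 CPM (counts scaled to equal library totals). Both libraries carried the markers of the labelled tissue, with at least 20 counts over both libraries for 10 of 10 B cell genes and 13 of 14 genes of splenic macrophages. Pancreas genes made up 1.91% of the counts in APAP and 6.29% in ctrl. All 15 measured genes of that list were lower in APAP, as were all 12 measured hepatocyte and all 7 adipocyte genes, 10 of 10 B cell genes, 11 of 12 T cell and 7 of 8 NK cell genes. These cell type shares move with the comparison, and their part in the values below was not tested. With DESeq2 size factors, the median log2 ratio of the 12929 genes with at least 20 counts (the measured genes) was 0.02, and 53.2% of them had a ratio above 1.

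For 9 of the 10 members, all but Mmp9, the sequence before the transcription start was found in RefSeq (GRCm38.p6, the assembly of mm10), and the 250 bases before the start were searched on both strands for TTGCNNAA, a form of the C/EBP site. The letters were found before 4 of the 9 genes, namely Ngp, Ltf, Lcn2 and Mmp8, against 9.56% of all 32851 windows of this length in the table. The PU.1 core GAGGAAG, which does not overlap with them in these windows, was found before 4 genes as well, namely Lcn2, Mmp8, Mmp25 and Itgb2l, against 10.6% of all windows. A match describes the letters of the window and does not show a site in use. The windows with TTGCNNAA are given here, 5′ to 3′ on the strand of the gene with the match in capitals, followed by that of Camp, the most abundant of the 5 members whose window holds no match. The ratios of APAP over ctrl ran from 1.77 (Mmp8) to 3.55 (Ltf) in the 4 genes with the letters and from 1.80 (Itgb2l) to 2.99 (Chil3) in the 5 without them, so that both ranges overlap. Positions are chr9:110419558-110419807 (plus strand) for Ngp, chr9:111019042-111019291 (plus) for Ltf, chr2:32387740-32387989 (minus) for Lcn2, chr9:7558179-7558428 (plus) for Mmp8 and chr9:109849457-109849706 (minus) for Camp.
Ngp: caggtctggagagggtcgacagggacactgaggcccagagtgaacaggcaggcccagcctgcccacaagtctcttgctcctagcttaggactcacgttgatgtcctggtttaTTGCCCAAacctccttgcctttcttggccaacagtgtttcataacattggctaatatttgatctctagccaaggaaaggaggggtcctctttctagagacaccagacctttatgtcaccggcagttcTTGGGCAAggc
Ltf: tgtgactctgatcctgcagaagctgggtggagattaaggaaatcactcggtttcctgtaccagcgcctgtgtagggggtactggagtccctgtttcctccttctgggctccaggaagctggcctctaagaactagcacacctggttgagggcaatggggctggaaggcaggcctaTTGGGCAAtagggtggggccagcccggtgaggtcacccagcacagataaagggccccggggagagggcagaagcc
Lcn2: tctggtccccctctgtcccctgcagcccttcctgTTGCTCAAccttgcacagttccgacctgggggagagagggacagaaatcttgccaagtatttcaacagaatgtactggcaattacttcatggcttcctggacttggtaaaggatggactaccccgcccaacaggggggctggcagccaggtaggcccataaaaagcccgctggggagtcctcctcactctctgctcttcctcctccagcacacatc
Mmp8: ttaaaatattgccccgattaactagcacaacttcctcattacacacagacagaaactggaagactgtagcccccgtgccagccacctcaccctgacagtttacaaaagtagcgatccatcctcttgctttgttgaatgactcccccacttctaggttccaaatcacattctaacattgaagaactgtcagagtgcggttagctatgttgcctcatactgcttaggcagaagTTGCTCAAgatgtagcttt
Camp: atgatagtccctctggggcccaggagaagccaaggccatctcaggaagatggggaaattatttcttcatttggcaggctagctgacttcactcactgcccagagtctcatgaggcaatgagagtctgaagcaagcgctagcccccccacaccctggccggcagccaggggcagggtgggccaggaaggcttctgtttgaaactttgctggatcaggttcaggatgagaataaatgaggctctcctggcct

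In these windows Ngp held the letters at 2 places, beginning 138 and 11 bases before the start. The match of Ltf began 75 bases before it, that of Lcn2 216 and that of Mmp8 19 bases before it. These starts are those of RefSeq. The GENCODE M21 bounds of Ngp (from 110419747), Ltf (from 111019271), Lcn2 (to 32388252) and Camp (to 109849617) reach into the windows. By those bounds the match of Ngp nearest to the start and the whole window of Lcn2 lie inside the gene.

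All 10 members had more CPM in the APAP library than in ctrl. Together they had 2640 counts in APAP and 851 in ctrl, which are 0.0913% (Wilson interval 0.0879 to 0.0949) and 0.0311% (0.0291 to 0.0333) of all counts, and the ratio of these sums was 2.79 (2.58 to 3.02). Of the 9 members with at least 20 counts, 8 met the size rule (at least 20 counts, a ratio of at least 2 and an interval that excludes 1), whereas 1.39% of all measured genes met it as higher. No member met it as lower, against 1.68% of measured genes. All 9 had an interval above 1, against 9.13% of measured genes. Their median log2 ratio was 1.53, beside 0.02 over all measured genes. Mmp8 did not reach a ratio of 2 and Itgb2l did not reach 20 counts. Cd177 and Mmp25 passed the minimum of 20 counts through the APAP library alone, so that their place among the measured genes is not independent of the direction. In bulk RNA, more cells of a type and more RNA per cell cannot be told apart.

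**Figure D1:**
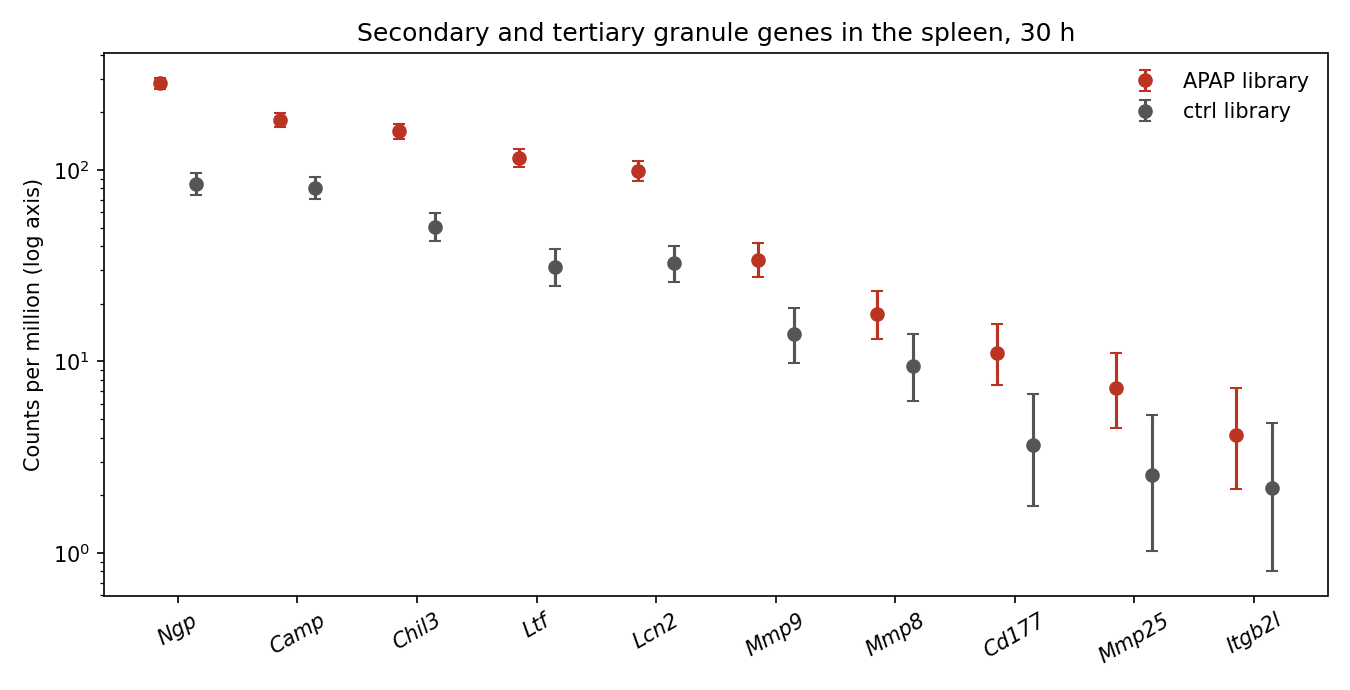
Level of the 10 granule genes in CPM (log axis) in the APAP library (red, left of each pair) and the ctrl library (grey), ordered by total counts, with exact Poisson 95% intervals of counting error. Each gene sits higher in APAP, from 283 against 84.8 CPM for Ngp to 4.15 against 2.19 CPM for Itgb2l. The intervals of Mmp8, Mmp25 and Itgb2l overlap between the libraries.

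Among the proteins of the granule matrix, neutrophilic granule protein (Ngp), a small secreted protein related to cathelicidins, was the most abundant. It had 818 counts (283 CPM) in APAP and 232 counts (84.8 CPM) in ctrl, with a ratio of 3.17 (2.74 to 3.69). Lactoferrin (Ltf), the iron-binding protein that defines secondary granules, had 335 counts (116 CPM) in APAP and 85 (31.1 CPM) in ctrl. Its ratio of 3.55 (2.79 to 4.56) was the highest among the members. Of the 12929 measured genes, Ltf took rank 32 and Ngp rank 43 by ratio, and the genes took ranks 3 and 4 by the lower bound of the interval.

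Chitinase-like 3 (Chil3, also Ym1), a lectin without chitinase activity that macrophages and monocytes of the mouse make as well, had 459 counts (159 CPM) in APAP and 138 (50.4 CPM) in ctrl. The ratio was 2.99 (2.47 to 3.65). Its close paralogue Chil4, from which reads could be confused with those of Chil3, was nearly absent with 2 counts in APAP and 1 in ctrl. Lipocalin 2 (Lcn2), which binds bacterial siderophores and thereby withholds iron, had 286 counts (98.9 CPM) in APAP and 89 (32.5 CPM) in ctrl, a ratio of 2.89 (2.27 to 3.71). Chil3 and Lcn2 thus lay within the intervals of Ngp and Ltf.

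Cathelicidin (Camp), the precursor of the antimicrobial peptide CRAMP, had a lower ratio than Ngp, Ltf, Chil3 and Lcn2. With 528 counts (183 CPM) in APAP and 220 (80.4 CPM) in ctrl it nearly equalled Ngp in the ctrl library but not in the APAP library. The ratio was 2.16 (1.84 to 2.54), and its interval does not overlap that of Ngp. Among the counts of all 10 members, the share of Camp was 20% in APAP (Wilson interval 18.5 to 21.6) and 25.9% in ctrl (23.0 to 28.9). That of Ngp was 31.0% in APAP (29.2 to 32.8) and 27.3% in ctrl (24.4 to 30.4). Camp was the only member whose intervals of this share did not overlap between the libraries. Set against the sum of the other members, the ratio of Camp was 0.717 times theirs (0.597 to 0.864), that of Ltf 1.31 times (1.01 to 1.71) and that of Ngp 1.20 times (1.01 to 1.43), while the intervals of the other 7 members included 1.

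**Figure D2:**
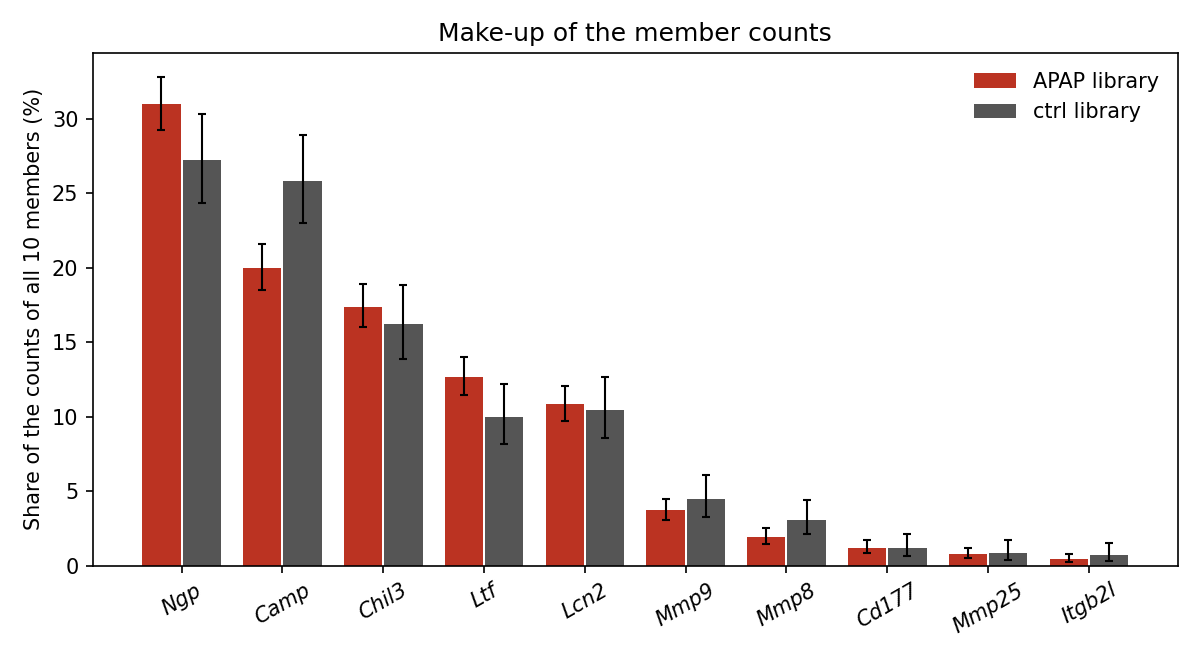
Share of each gene in the summed counts of the 10 members (%), in the APAP library (red, left) and the ctrl library (grey), with Wilson 95% intervals as error bars. Camp takes 20% in APAP and 25.9% in ctrl, and the bars of every other gene have intervals that overlap between the libraries.

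The difference between members was examined as the ratio of their ratios, which does not depend on the scaling of the libraries. Of 45 pairs, 5 had a 95% interval that excludes 1, and 2 still did so at the Bonferroni level over all pairs. Both of these pairs involve Camp. The ratio of Ltf was 1.64 times that of Camp (1.22 to 2.21; 1.02 to 2.69 at the Bonferroni level), and that of Ngp was 1.47 times that of Camp (1.18 to 1.83; 1.02 to 2.11). At the unadjusted level, Chil3 over Camp was 1.39 (1.08 to 1.79), Ltf over Mmp8 was 2.01 (1.13 to 3.50) and Ngp over Mmp8 was 1.80 (1.05 to 3.01). For Ltf over Ngp the value was 1.12 (0.840 to 1.497) and for Chil3 over Lcn2 1.04 (0.753 to 1.42). Lcn2 over Camp was 1.34 (0.999 to 1.80) and Mmp9 over Camp 1.07 (0.706 to 1.66). Within these pairs no difference was detectable. These intervals compare both libraries and not the conditions.

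The metalloproteinases of the neutrophil are stored in secondary and tertiary granules and cleave extracellular matrix. Mmp9, gelatinase B and the name-giving enzyme of the gelatinase granule, had 98 counts (33.9 CPM) in APAP and 38 (13.9 CPM) in ctrl, a ratio of 2.32 (1.58 to 3.47). Mmp8, the neutrophil collagenase, had 51 counts (17.6 CPM) in APAP and 26 (9.50 CPM) in ctrl. With a ratio of 1.77 (1.08 to 2.95) it was the member with the lowest ratio and missed the size rule. Mmp25, a membrane-anchored metalloproteinase of neutrophils, had 21 counts (7.26 CPM) in APAP and 7 (2.56 CPM) in ctrl with a ratio of 2.70 and an interval from 1.11 to 7.52. Among these enzymes no pair differed beyond counting error, for example Mmp9 over Mmp8 with 1.31 (0.685 to 2.50).

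Surface proteins were represented by few counts. Cd177, a glycoprotein on the neutrophil membrane and, in humans, on that of secondary granules, had 32 counts (11.1 CPM) in APAP and 10 (3.66 CPM) in ctrl with a ratio of 2.88 (1.38 to 6.57). Itgb2l, an integrin beta chain related to Itgb2, had 12 counts in APAP and 6 in ctrl. Its ratio of 1.80 had an interval from 0.625 to 5.85, and a difference was not detectable at this depth. Itgb2 itself, the common beta chain of leukocyte integrins, which lymphoid and myeloid cells share, had 625 counts in APAP and 505 in ctrl (1.11, 0.989 to 1.25).

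**Figure D3:**
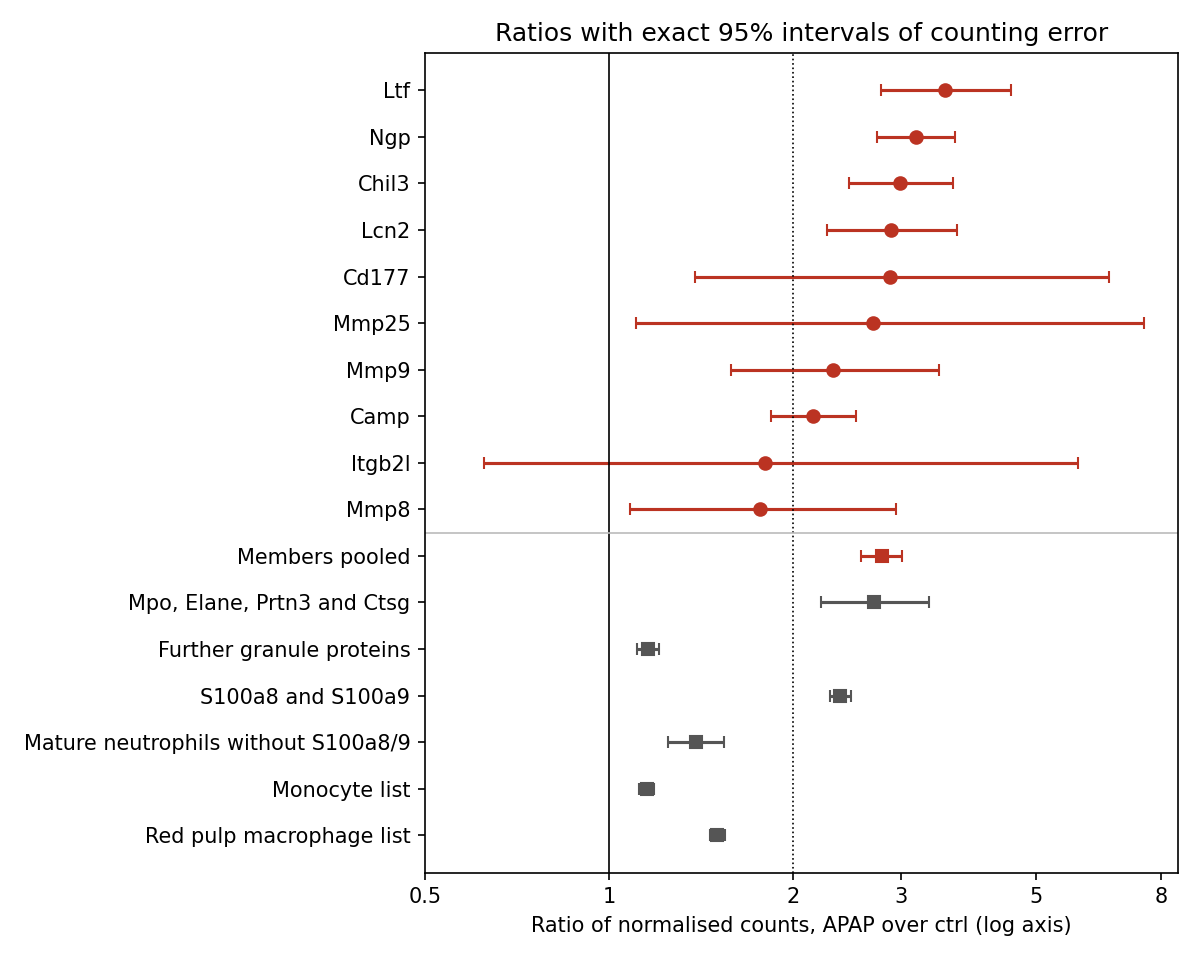
Ratio of normalised counts of APAP over ctrl (log axis) for each member (red circles) and for pooled counts of the members (red square) and of other gene sets (grey squares), with exact 95% intervals of counting error, the solid line marking 1 and the dotted line 2. The members lie between 1.77 (Mmp8) and 3.55 (Ltf), all intervals except that of Itgb2l lie above 1, and the further granule proteins pool to 1.16.

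The study used a threshold of 3-fold induction. It was applied here to the normalised counts of all genes with counts of 0 set to 1, and as the filters of the study were not known in full, the genes that pass need not be its own set. By this threshold 2 of the 10 members passed, namely Ltf and Ngp. Of all 22791 genes 546 (2.40%) passed it, and of the measured genes 0.371%. Chil3 lay just below it with 2.99. Library totals in place of DESeq2 factors moved Chil3, Lcn2 and Cd177 above 3 as well, which gives 5 members, whereas the sizes of the ratios differed little. By rank of the ratio among all measured genes, Chil3 took place 50, Lcn2 53, Cd177 54, Mmp25 74, Mmp9 144, Camp 205 and Mmp8 461. By the lower bound of the interval the order differed, with Chil3 at 6, Lcn2 at 10, Camp at 24, Mmp9 at 39, Cd177 at 92, Mmp25 at 497 and Mmp8 at 614.

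**Figure D4:**
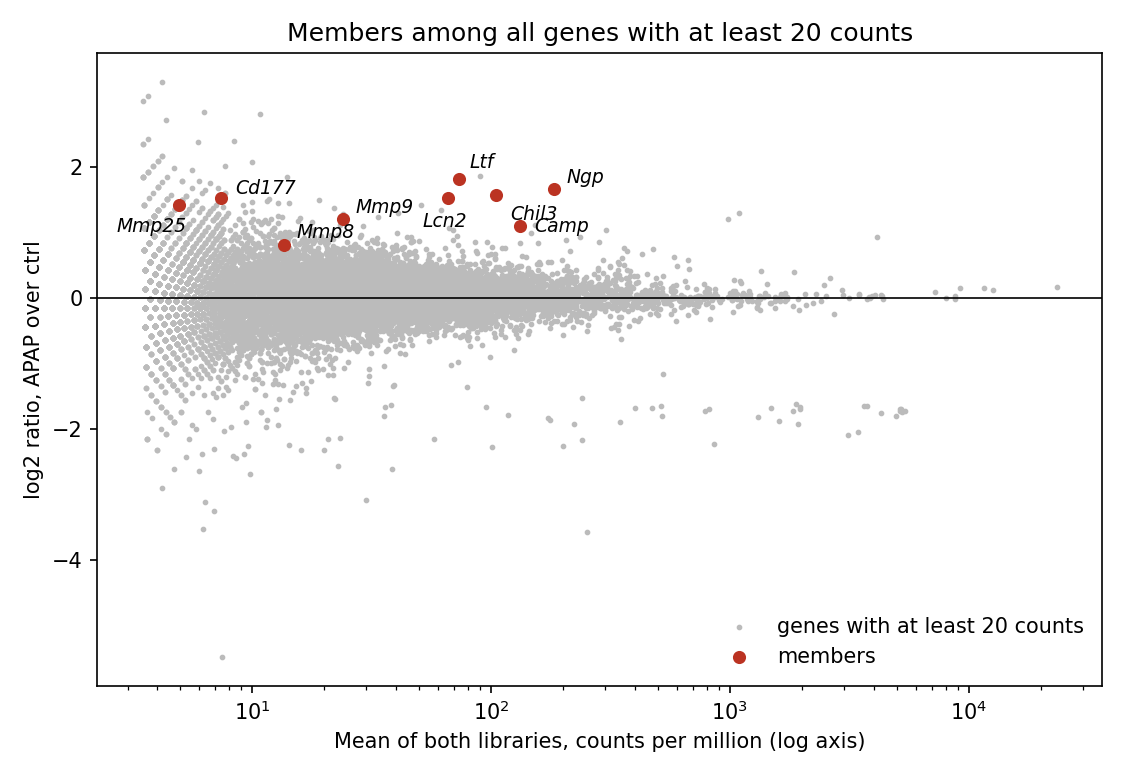
log2 ratio of APAP over ctrl against the mean level of both libraries (CPM, log axis) for genes with at least 20 counts (grey) and the 9 members among them (red, named). All 9 members lie above 0, with Ltf highest at 1.83 and Mmp8 lowest at 0.82. Genes with no count in 1 of the libraries have no finite log2 ratio and are not drawn.

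Other genes of the neutrophil lineage were set beside the members. Of 10 measured genes of primary granules and promyelocytes, 9 had a ratio above 1 (53.2% of all measured genes did). The size rule was met by 4, all as higher, against 1.39% of measured genes. These were Ctsg, Elane, Prtn3 and Mpo, the genes of the serine proteases and of myeloperoxidase, with ratios between 2.47 and 4.23. Ctsg (47 counts in APAP, 10 in ctrl) passed the minimum through the APAP library alone. In that list 6 of the 10 measured genes had an interval above 1, against 9.13% of measured genes, and the median log2 ratio was 0.69. Summed, the 4 genes had 392 counts in APAP and 130 in ctrl (2.71, 2.22 to 3.34), and the pooled ratio of the members was 1.03 times theirs (0.825 to 1.28), a comparison chosen after the values were seen. Against the whole primary list the factor was 2.17 (1.96 to 2.41), but Srgn and Cd63, which many cell types express, supply most of its counts. Without this pair the factor was 1.34 (1.12 to 1.60).

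In the list of mature neutrophils, 13 of 14 measured genes were above 1 (53.2% of all measured genes were). The size rule was met as higher by 2, against 1.39% of measured genes. These were the alarmin genes S100a8 and S100a9 (4569 and 4006 counts in APAP, 1672 and 1557 in ctrl). The median log2 ratio was 0.65. In all, 6 of the 14 had an interval above 1, against 9.13% of measured genes. Beside both alarmins these were Wfdc21 (1.96, 1.39 to 2.79), Retnlg (1.82, 1.40 to 2.38), G0s2 (1.38, 1.07 to 1.78) and Fcgr4 (1.33, 1.01 to 1.78). The pooled ratio of the members was 1.25 times that of this list (1.15 to 1.36) and 2.02 times that of the list without both alarmins (1.77 to 2.30). Ly6g, which encodes the surface antigen Ly-6G of the mature cell, had 14 counts in APAP and 11 in ctrl (1.15, 0.483 to 2.79). Csf3r, the receptor of granulocyte colony-stimulating factor, had 42 counts in APAP and 35 in ctrl (1.08, 0.673 to 1.74). Cxcr2, the receptor for neutrophil-attracting chemokines, had 23 counts in APAP and 11 in ctrl (1.88, 0.881 to 4.28). For these 3 receptor and surface genes a difference was not detectable at this depth, with intervals that reach up to 1.74 or higher. All genes of this list other than both alarmins were named after their values were seen.

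A further list held 16 genes whose proteins are known from secondary or tertiary granules but which other leukocytes or the liver express as well. Other cells can express the members Chil3 and Lcn2 too, so that this trait does not separate the list from all members. Of 14 measured, 10 had a ratio above 1 (53.2% of all measured genes did). None met the size rule, which 1.39% of measured genes met as higher and 1.68% as lower. An interval above 1 was found for 6 of the 14, against 9.13% of measured genes, and 1 had an interval below 1. The oxidase subunit gene Cyba had 1739 counts in APAP and 1455 in ctrl (1.08, 1.003 to 1.15), and properdin (Cfp) had 998 counts in APAP and 736 in ctrl (1.22, 1.11 to 1.34). The highest ratio of the list was that of haptoglobin (Hp), with 178 counts in APAP and 84 in ctrl (1.91, 1.46 to 2.50), named after its value was seen. The median log2 ratio was 0.24, and the pooled ratio of the members was 2.41 times that of this list (2.21 to 2.63). Most of the counts of the list, 5601 in APAP and 4352 in ctrl, came from Cyba, Cfp and Slpi. Slpi, named after its values were seen, had 900 counts in APAP and 627 in ctrl.

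Of 10 measured transcription factors of granulocyte maturation, 5 had a ratio above 1, near the share of 53.2% among all measured genes. The size rule was met by 2, both as higher, against 1.39% of measured genes. Cebpe had 22 counts (7.61 CPM) in APAP and 3 (1.10 CPM) in ctrl, a ratio of 6.60 with a wide interval from 1.98 to 34.4, and passed the minimum of 20 counts through the APAP library alone. Cebpd had 139 counts in APAP and 53 in ctrl (2.36, 1.71 to 3.30). Of the other factors Cebpb (1.41, 1.08 to 1.83) and Irf8 (1.11, 1.004 to 1.22) had intervals above 1, and Lef1 (0.696, 0.555 to 0.870) one below 1. Cebpa, which acts earlier in myeloid differentiation, had 75 counts in each library (0.900, 0.645 to 1.26), and Spi1, the gene of PU.1, had 343 counts in APAP and 281 in ctrl (1.10, 0.936 to 1.29). These 5 factors were named after their values were seen. The median log2 ratio of the list was 0.04.

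Among 14 measured genes of receptors, ligands and inhibitors of the member proteins, 12 had a ratio above 1 (53.2% of all measured genes did). The size rule was met by 2 as higher, against 1.39% of measured genes. Timp1, which encodes an inhibitor of metalloproteinases, had 29 counts in APAP and 11 in ctrl (2.37, 1.15 to 5.26) and, like Cebpe, passed the minimum through the APAP library alone. Prtn3, which was already counted in the list of primary granule genes, had 93 counts in APAP and 32 in ctrl (2.62, 1.73 to 4.04). The product of Prtn3 is bound by CD177 on human neutrophils. The lipocalin receptor gene Slc22a17 had 28 counts in APAP and 18 in ctrl (1.40, 0.748 to 2.69), and Lrp1, an endocytic receptor that takes up lactoferrin, had 501 counts in APAP and 291 in ctrl (1.55, 1.34 to 1.80). Both were named after their values were seen. The median log2 ratio of the list was 0.37.

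Other cells can supply some of the members' mRNA, and their markers were measured in the same libraries. Of all measured genes, 53.2% had a ratio above 1, 1.39% met the size rule as higher and 1.68% met it as lower. Monocyte markers had 10980 counts (3798 CPM) in APAP and 8570 (3133 CPM) in ctrl, and 11 of 12 were above 1, but no gene met the size rule. Lyz2, the lysozyme gene, supplied most of these counts, 7836 in APAP and 6130 in ctrl, and had a ratio of 1.15 (1.11 to 1.19). In all, 5 of the 12 monocyte markers had an interval above 1, against 9.13% of measured genes, and none had an interval below 1. Among these 5 were Ccr2 (1.60, 1.18 to 2.17) and F13a1 (1.70, 1.18 to 2.48), named after their values were seen. Splenic macrophage markers had 4582 CPM in APAP and 2899 CPM in ctrl, with 13 of 13 above 1 and no gene meeting the rule. Of these 13 markers, 12 had an interval above 1, against 9.13% of measured genes. Their pooled ratio was 1.503 (1.46 to 1.55). The ratio of the members was 2.42 times that of monocyte markers (2.23 to 2.63), a factor that rests mostly on Lyz2. It was 1.86 times that of macrophage markers (1.71 to 2.02). Of 7 measured genes of alternatively activated macrophages, which can express Chil3, 6 were above 1 and none met the rule as higher, while Retnla met it as lower (9 counts in APAP, 27 in ctrl; 0.300, 0.124 to 0.657). Epithelial markers, of interest because epithelia express Lcn2, had 15.9 CPM in APAP and 37.6 CPM in ctrl, and 3 keratin genes of this list met the rule as lower. The minimum of 20 counts was reached through the ctrl library alone by Retnla and, among these keratins, Krt18 and Krt8. Krt19 stood just at the minimum, with 4 counts in APAP and 16 in ctrl. Eosinophil and basophil genes had 309 CPM in APAP and 167 CPM in ctrl, and all 8 measured were above 1, with Prg2 (259 counts in APAP, 91 in ctrl) and Epx (21 in APAP, 7 in ctrl) meeting the rule as higher, Epx with the minimum reached through the APAP library alone. Their median log2 ratio was 0.89, the highest of the other lists, and the pooled ratio of the members was 1.59 times that of this list (1.38 to 1.83). Of the markers of these 5 lists, only Siglecf, named after its values were seen, stood at 0, in ctrl, with 3 counts in APAP. The part of these cells in the members' ratios was not tested.

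**Figure D5:**
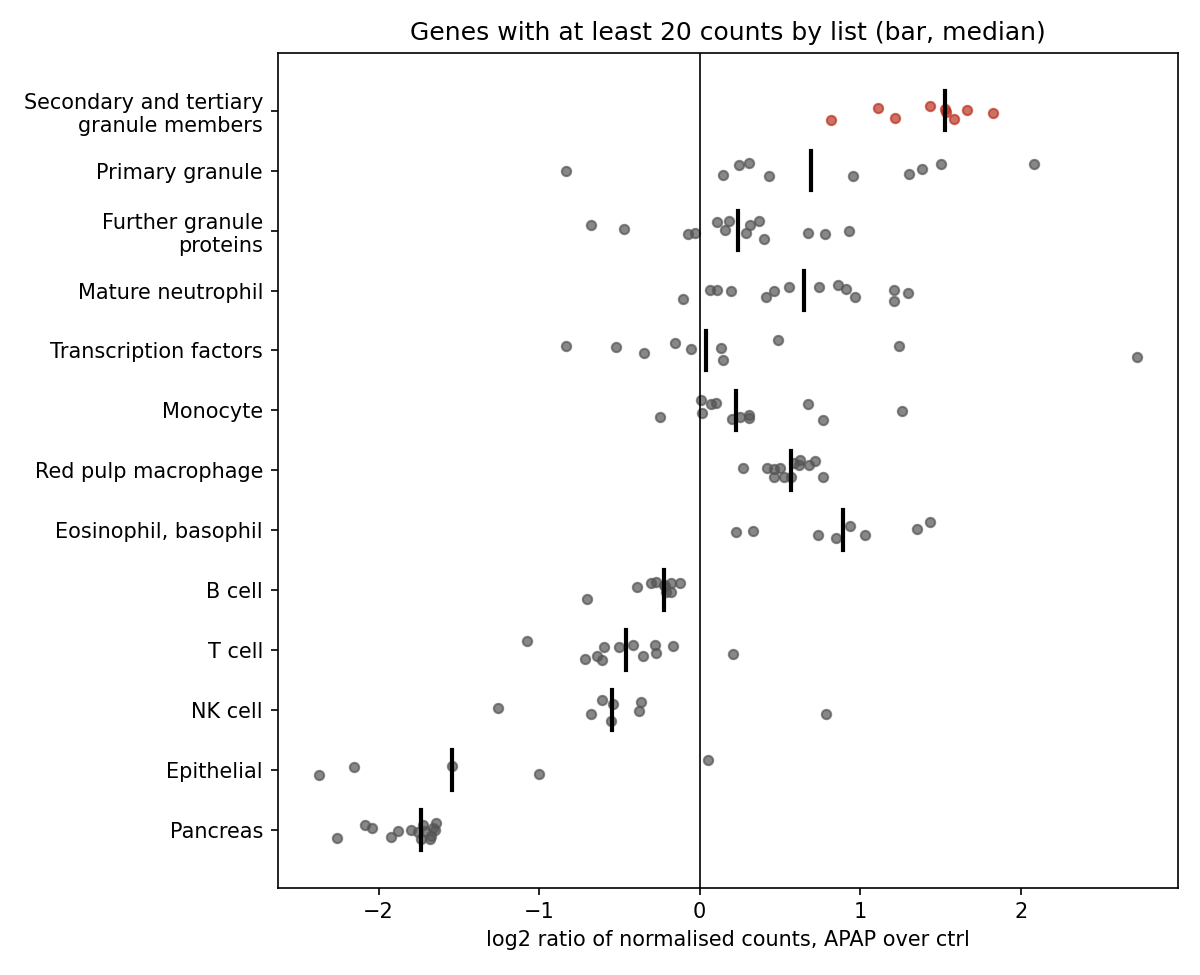
log2 ratio of APAP over ctrl for the genes with at least 20 counts in each list, 1 point per gene, with the median as a black bar, the granule members in red and the line at 0 marking equal levels. The members' median is 1.53, above that of the eosinophil and basophil (0.89), mature neutrophil (0.65), primary granule (0.69) and monocyte lists (0.23), whereas the pancreas list lies lowest at -1.74.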

How the data were processed

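Splenic RNA of each group was isolated with trizol, digested with DNase I and pooled, and libraries were made with the MACE-kit v.2. The raw counts per gene were deposited by the authors without normalisation. They had removed duplicates by unique molecular identifiers, trimmed bases with cutadapt, clipped poly(A) tails, mapped reads to mm10 and counted with HTSeq. Per the labels DESeq2 was used too. The sources used here do not name aligner, annotation, strand setting or versions. A further 4 columns of rescaled values and 3 of means over both libraries were not used.

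Counts were divided by DESeq2 size factors (DESeq2 1.42.0, R 4.3.3) of 1.05 for APAP and 0.949 for ctrl. Ratios were given with exact intervals from the Clopper-Pearson interval of the APAP share of a gene's reads, and ratios of ratios with conditional exact intervals (scipy 1.17.1, Python 3.11.15). No p-value was computed. Intervals cover counting error only. Alternatives were 5 other scalings, other minimum counts and other thresholds. Figures were drawn with matplotlib 3.10.9. The size rule was tested on simulated data. Coordinates and overlaps came from GENCODE M21, in which no exon of a member overlapped that of another gene. The members, the 20 other gene lists and the rules were chosen with earlier results of these data known. From each list up to 4 genes that met the size rule were named, or the 2 with the most counts. Itgb2 and Chil4 were named as near paralogues of members. Other genes whose values are given are marked as named after these were seen.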

Additional observations from a re-analysis of the deposited data

How the results depend on the processing

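With 5 other scalings, including TMM factors (edgeR 4.0.16) and totals without pancreas genes, the ratio of every member stayed within its counting interval and the pooled ratio of the members lay between 2.74 and 2.97, while without Ngp it was 2.65 and without Camp, a choice made after seeing the data, 3.01. The median log2 ratio lay between 1.48 and 1.61 under these scalings and minimum counts, and 8 members met the size rule under each scaling. By construction, 9 met it with a ratio of at least 1.5, 6 with a minimum of 50 counts, 6 where the interval had to exclude 1.5, and 2 with a ratio of at least 3. The study's threshold was passed by 5 members in place of 2 with library totals, and likewise by 5 with totals without haemoglobin and immunoglobulin genes. At the Bonferroni level 2 pairs of members differed in place of 5. The factor of the members over the mature list was 2.02 without S100a8 and S100a9, and that over the primary list 1.34 without Srgn and Cd63, both chosen after seeing the data. Summed with Itgb2, Itgb2l had a ratio of 1.12. Depth limits Itgb2l, Mmp25 and Cd177, with 18 to 42 counts in all. No paired analysis was possible because there is only 1 library on either side.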

Other observations

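Ltf, Ngp and Camp lie on chromosome 9 within 1195 kb of each other (mm10, 109847379 to 111042767). Of the 25 other genes of this span in the table, 18 had at least 20 counts. None of these met the size rule, which 1.39% of measured genes met as higher and 1.68% as lower. Of the 18 genes, 11 were above 1 (53.2% of all measured genes were), and their ratios ranged from 0.650 to 1.46 with a median log2 ratio of 0.07. No interval lay above 1, while that of Als2cl, the gene with the lowest ratio, lay below 1 (0.479 to 0.878). Als2cl was named after its values were seen. The neighbours nearest to Ngp, Ptpn23 (69 counts in APAP, 65 in ctrl; ratio 0.955, 0.671 to 1.36) and Klhl18 (76 in APAP, 60 in ctrl; 1.14, 0.802 to 1.63), were named after their values were seen.

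Of 9 measured genes of granulopoiesis signals, 8 were above 1 (53.2% of all measured genes were), with a median log2 ratio of 0.11. None met the size rule, which 1.39% of measured genes met as higher and 1.68% as lower. An interval above 1 was found for 4 of the 9, against 9.13% of measured genes. The listed cytokine genes Csf3 and Il17a had no entry in the data. Il6 (1 count in each library) and Csf2 (0 in APAP, 1 in ctrl), named after their values were seen, stayed under 20 counts. A change of these cytokine genes could thus not be assessed. Cxcl12, the chemokine that holds neutrophils and their precursors in the marrow niche, had 2360 counts in APAP and 1413 in ctrl (1.503, 1.41 to 1.61). Its receptor gene Cxcr4 had 381 counts in APAP and 342 in ctrl (1.003, 0.864 to 1.16).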
